A study of Mus musculus with 12 samples.

Results

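The levels of 10 marker genes of mast cells and eosinophils were followed through messenger RNA of mouse peritoneal macrophages: Cma1, Mcpt4, Tpsb2, Tpsab1, Cpa3, Hdc, Kit, Fcer1a, Ms4a2 and Il5ra. They were chosen by name, and 8 of the 10 had a row among the 15721 genes of the deposited table. Ms4a2 and Tpsab1 are not analysed here. Of the 8, the 7 other than Fcer1a passed the filter on low values and were tested beside 13231 genes in all.

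The macrophages were isolated by FACS from C57BL/6 mice, and strand-specific libraries were made from poly-dT-enriched RNA. There were 3 libraries in each of 4 genotype groups: Samhd1 Sting dKO, Samhd1 Cardif dKO, Samhd1 KO and WT. SAMHD1 is an enzyme that degrades deoxynucleotides. STING passes on signals from cGAS, which senses DNA, and Cardif, now called MAVS, passes on signals from MDA5 and RIG-I, which sense RNA. The series asks how the response to loss of SAMHD1 depends on these adaptors. Both dKO groups lack SAMHD1 as well, so Samhd1 KO is their nearest control, while no WT library carries a knockout. The labels give an age without a unit, 24, 16 and 18 in Samhd1 Sting dKO, 18, 18 and 16 in Samhd1 Cardif dKO libraries, 19, 18 and 16 in Samhd1 KO libraries and 16 in each WT library. All mice were female except that of Samhd1 Cardif dKO replicate 1. The labels do not say whether a library is 1 mouse or a pool, nor how the alleles were made, so the p-values below measure the spread between these libraries, which may be partly technical.

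Mast cells are granulated tissue cells that are common in the peritoneal cavity. Their granules store chymases, tryptases, carboxypeptidase and histamine, their survival depends on the receptor KIT, and antigen releases the granules through the high-affinity IgE receptor, which is built from the products of Fcer1a, Ms4a2 and Fcer1g. Eosinophils are granulocytes that depend on interleukin-5, whose receptor has IL5RA as its specific chain. In the mouse that chain is also known on a subset of B cells of the peritoneal cavity. Neither cell type is a macrophage, so in these bulk libraries a lower level can come from fewer such cells or from less RNA per cell, which cannot be told apart.

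The sort held macrophages by their markers, and reads of other cell types differed between libraries. Depth was 18884021 to 32204657 reads. All 14 large peritoneal macrophage markers were read, among them Csf1r at 38280 to 48318 normalized reads and Gata6 at 3134 to 4414. Samhd1 averaged 3683 ± 763 normalized reads in Samhd1 Sting dKO, 3613 ± 678 in Samhd1 Cardif dKO libraries and 6520 ± 1167 in Samhd1 KO libraries, against 10761 ± 713 in WT (SD, n = 3 each). Mavs averaged 518 ± 8.05 in Samhd1 Cardif dKO, against 859 ± 47.9 in WT. Tmem173, which encodes STING, averaged 551 ± 22.4 in Samhd1 Sting dKO and 522 ± 36.0 in WT, so its level does not check the label of that group. Samhd1 Cardif dKO replicate 1 had 130 normalized reads of the collagen gene Col1a1, against 0 to 3.64 in every other library.

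The 250 bases before the annotated start of 3 protease genes that varied together, and of Hdc, which did not vary with them, are shown to place the genes. They come from RefSeq on build GRCm38.p6 and are written 5′ to 3′ on the strand of the gene. GATAA or its reverse complement TTATC, a form of the motif of GATA factors, is in capitals. Of the 10 genes, 8 matched an entry of the promoter table.
Cma1 (chr14:55944676-55944925, strand minus): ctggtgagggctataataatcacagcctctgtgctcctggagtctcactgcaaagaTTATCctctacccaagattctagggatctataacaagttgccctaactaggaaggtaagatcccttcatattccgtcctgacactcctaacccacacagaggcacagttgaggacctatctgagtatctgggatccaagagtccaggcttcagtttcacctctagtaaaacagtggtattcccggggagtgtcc
Mcpt4 (chr14:56062311-56062560, strand minus): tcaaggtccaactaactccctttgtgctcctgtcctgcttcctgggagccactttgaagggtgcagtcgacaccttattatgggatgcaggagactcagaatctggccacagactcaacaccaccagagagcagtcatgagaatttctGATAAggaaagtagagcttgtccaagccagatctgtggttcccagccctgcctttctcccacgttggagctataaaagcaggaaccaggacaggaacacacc
Cpa3 (chr3:20242182-20242431, strand minus): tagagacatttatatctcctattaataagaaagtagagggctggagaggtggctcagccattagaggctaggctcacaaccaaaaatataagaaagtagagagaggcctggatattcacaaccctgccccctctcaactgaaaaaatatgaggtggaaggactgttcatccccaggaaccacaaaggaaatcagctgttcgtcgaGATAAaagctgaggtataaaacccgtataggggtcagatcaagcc
Hdc (chr2:126618679-126618928, strand minus): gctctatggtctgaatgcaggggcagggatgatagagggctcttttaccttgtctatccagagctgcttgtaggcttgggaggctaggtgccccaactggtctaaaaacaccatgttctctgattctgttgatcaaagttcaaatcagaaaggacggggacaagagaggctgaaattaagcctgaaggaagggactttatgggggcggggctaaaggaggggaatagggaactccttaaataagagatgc
The first capital letter lies 194 bases before the start in Cma1, 102 in Mcpt4 and 45 in Cpa3. Hdc has no match to GATAA in this window. Other forms of the GATA motif were not searched, and the printed Hdc sequence holds GATAG, so no contrast between Hdc and the proteases follows. GATAA, searched on both strands, was present in 6 of the 8 promoters of the set (Cma1, Mcpt4, Cpa3, Fcer1a, Ms4a2 and Il5ra), against 22.6% of 32851 promoters of the same length. Kit, which varied with the proteases, had no GATAA in its entries, so presence of GATAA did not follow the shared variation. TATAAA on both strands was in 3 of the 8, against 12.4% of all. CANNTG, the general E-box motif, was in 5 of the 8, against 66.2% of all, and its special case CATGTG was in 1, against 12.3%. These matches are letters in a window and not bound sites.

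All 4 granule protease genes stood highest on average in Samhd1 Sting dKO and lowest in Samhd1 KO. Levels are normalized reads, that is reads divided by 1 size factor per library, given for replicates 1, 2 and 3. Cma1 (ENSMUSG00000022225), which encodes a chymase, had 96.8, 138 and 11.9 normalized reads in Samhd1 Sting dKO, 14.3, 15.1 and 10.9 in Samhd1 Cardif dKO libraries and 1.65, 0 and 2.83 in Samhd1 KO libraries, against 29.4, 34.4 and 76.3 in WT. The Samhd1 KO libraries lay below all 9 others and held 5 reads of the gene in all. Mcpt4 (ENSMUSG00000061068), another chymase gene, had 78.1, 107 and 8.35 normalized reads in Samhd1 Sting dKO, 12.3, 11.0 and 4.85 in Samhd1 Cardif dKO libraries and 0.824, 1.03 and 0.943 in Samhd1 KO libraries, against 10.4, 13.4 and 49.7 in WT. Each Samhd1 KO library held a single read of it.

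Tpsb2 (ENSMUSG00000033825), which encodes a tryptase, had 74.8, 133 and 5.96 normalized reads in Samhd1 Sting dKO, 22.5, 6.02 and 15.8 in Samhd1 Cardif dKO libraries and 0.824, 2.06 and 2.83 in Samhd1 KO libraries, against 33.1, 17.2 and 50.4 in WT. Cpa3 (ENSMUSG00000001865), the mast cell carboxypeptidase gene, had 114, 107 and 7.16 in Samhd1 Sting dKO, 11.3, 4.01 and 2.42 in Samhd1 Cardif dKO libraries and 4.95, 2.06 and 1.89 in Samhd1 KO libraries, against 20.8, 13.4 and 70.4 in WT. For both genes the Samhd1 KO libraries lay below all WT libraries, and Samhd1 Sting dKO replicate 3 lay below all of WT while replicates 1 and 2 lay above it. Cma1 and Mcpt4 belong to a family of related chymase genes and Tpsb2 has a close relative in Tpsab1, so how the authors' counting divided reads between copies is uncertain.

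The receptor genes were read less. Kit (ENSMUSG00000005672), the receptor of stem cell factor, had 18.7, 25.9 and 2.39 normalized reads in Samhd1 Sting dKO, 2.05, 1.00 and 3.64 in Samhd1 Cardif dKO libraries and 0, 2.06 and 0.943 in Samhd1 KO libraries, against 3.79, 5.73 and 12.6 in WT. Its libraries fell in much the same order as those of the proteases. Fcer1a (ENSMUSG00000005339), the IgE-binding chain, had 2.20, 10.1 and 0 in Samhd1 Sting dKO, 0 in each Samhd1 Cardif dKO library and 1.65, 0 and 0 in Samhd1 KO, against 0, 0.955 and 3.71 in WT. It was not tested, since 1 library reached 10 normalized reads. With a floor of 3 reads over the group for Samhd1 Cardif dKO, its mean was at least 3.83-fold higher in Samhd1 Sting dKO, and the groups overlap at 0.

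**Figure D1:**
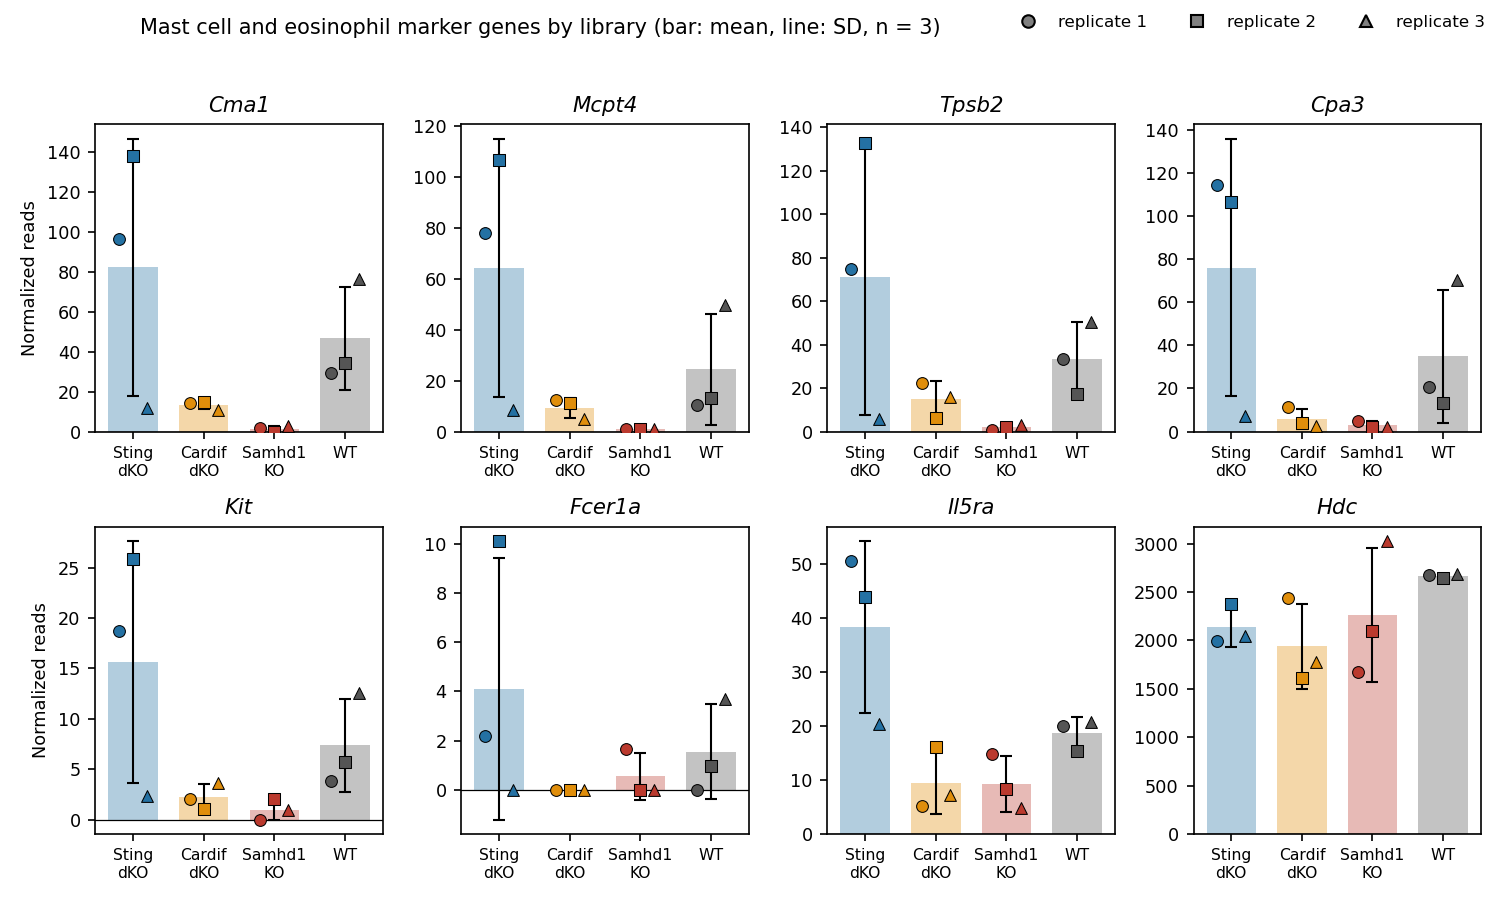
Normalized reads (y axis, a scale of its own for each gene) of the 8 genes in the table in each library of the 4 genotype groups (x axis). Points are replicates 1 to 3, bars are means and lines are SD (n = 3), and the lower SD limit can fall below 0. In Samhd1 Sting dKO the first 2 replicates of Cma1 are at 96.8 and 138 and the third is at 11.9, while Samhd1 KO is at 0 to 2.83; Hdc shows no such split.

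Ranked by mean, the order was Samhd1 Sting dKO, WT, Samhd1 Cardif dKO and Samhd1 KO for Cma1, Mcpt4, Tpsb2, Cpa3 and Kit. Samhd1 Sting dKO and WT, neighbours in that order, overlapped for each of the 5 genes. WT and Samhd1 Cardif dKO did not overlap for Cma1, Cpa3 and Kit, and overlapped for Mcpt4 and Tpsb2. Samhd1 Cardif dKO and Samhd1 KO did not overlap for Cma1, Mcpt4 and Tpsb2, and overlapped for Cpa3 and Kit. Per kilobase of transcript, which allows levels of different genes to be compared, the WT means were 43.5 ± 24.0 normalized reads for Cma1, 30.1 ± 14.9 for Tpsb2, 24.7 ± 22.1 for Mcpt4, 24.0 ± 21.4 for Cpa3 and 1.26 ± 0.794 for Kit (SD, n = 3), so the levels of the 4 proteases overlapped and Kit was lower.

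Single libraries carried much of this signal. The 4 protease genes summed to 364, 485 and 33.4 normalized reads in replicates 1, 2 and 3 of Samhd1 Sting dKO, to 33.9 to 60.4 in Samhd1 Cardif dKO and to 5.16 to 8.49 in Samhd1 KO, against 78.3 to 247 in WT, where replicate 3 was the highest. Replicate 1 of Samhd1 Sting dKO was 8.11 times replicate 3 for Cma1, 9.35 times for Mcpt4, 12.5 times for Tpsb2, 16.0 times for Cpa3 and 7.84 times for Kit. Replicate 2 was 10.8 to 22.3 times replicate 3 over the same 5 genes, while the ratio for Hdc was 0.977 in replicate 1 and 1.16 in replicate 2. The level of the 5 genes in Samhd1 Sting dKO thus differed more within the group than the group means of Samhd1 Sting dKO and WT differed from each other.

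Against WT, Samhd1 KO had lower levels of the mast cell proteases, and 3 of the 7 tested genes passed the test. Tests were made with limma on log2(normalized reads + 1), adjusted by Benjamini-Hochberg over all genes tested, and a fold change on this scale understates the change of genes with few reads. Cma1 averaged 1.49 ± 1.42 in Samhd1 KO and 46.7 ± 25.8 in WT (SD, n = 3 each), a log2 fold change of -4.33 (SE 0.777, limma adjusted p = 0.0108). Tpsb2 averaged 1.91 ± 1.01 in Samhd1 KO and 33.6 ± 16.6 in WT, a log2 fold change of -3.51 (SE 0.899, limma adjusted p = 0.0492). Mcpt4 averaged 0.933 ± 0.104 in Samhd1 KO and 24.5 ± 21.9 in WT, a log2 fold change of -3.39 (SE 0.818, limma adjusted p = 0.0397).

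The other 4 genes did not pass in that comparison. The log2 fold change was -2.91 for Cpa3 (limma adjusted p = 0.108), -2.07 for Kit (0.164), -1.05 for Il5ra (0.267) and -0.28 for Hdc (0.461). Over all genes tested 1.62% were called lower and 2.71% higher, and the median log2 fold change was -2.91 over the 7 genes and 0.00 over all genes tested. Of the 8 genes in the table, 6 had every Samhd1 KO library below every WT library, against 12.9% of all genes tested in that direction. Mcpt4, Tpsb2, Cpa3, Kit and Cma1 passed the filter through libraries outside Samhd1 KO, so these counts describe the genes and are not independent of the filter. Leaving out 1 library at a time gave 0 to 4 calls. Without WT replicate 3 none of the 3 passed (Cma1 adjusted p = 0.0586), and without any 1 Samhd1 KO library, WT replicate 1, WT replicate 2 or Samhd1 Cardif dKO replicate 2 only Cma1 did.

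Markers of other cell types also differed between these groups. The summed level of 10 B cell markers was 240 to 495 normalized reads in Samhd1 KO and 536 to 877 in WT, and that of 8 T and NK cell markers was 3.77 to 16.5 in Samhd1 KO and 22.9 to 41.7 in WT. Of the 10 B cell markers, 0 were called in Samhd1 KO against WT by limma and 6 were lower at an unadjusted p under 0.05. With the B cell level as a covariate, 0 of the 7 mast cell and eosinophil genes and 118 of all genes were called. The log2 fold change of Cma1 was then -3.60 (limma adjusted p = 0.118). The covariate, the mean log2 level of the 10 markers, was 3.87 to 4.86 in Samhd1 KO and 4.95 to 5.70 in WT. These ranges do not overlap, so the fit cannot cleanly separate B cell level from genotype. The summed level of 8 mesothelial and fibroblast markers was 241 to 288 in Samhd1 KO and 331 to 426 in WT. Nearly all of it came from the keratin gene Krt7, at 260 ± 20.8 in Samhd1 KO and 359 ± 55.8 in WT. Of the 8 markers only 1, Krt7, had enough reads to be tested. The summed level of the 3 neutrophil markers in the table ran the other way, at 5386 to 6968 in Samhd1 KO and 3393 to 5127 in WT. Nearly all of it came from Prtn3, a granule protease gene that was called higher (log2 fold change 0.70, limma adjusted p = 0.0495). Of the 3 markers 2 were higher and 1, S100a8, was lower, averaging 30.5 ± 9.50 in Samhd1 KO and 50.9 ± 13.2 in WT. The part of the T and NK cell, mesothelial and neutrophil levels in these results was not tested.

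Against Samhd1 KO, Samhd1 Sting dKO had higher levels of all 4 protease genes and of Il5ra. Cma1 averaged 82.3 ± 64.4 in Samhd1 Sting dKO and 1.49 ± 1.42 in Samhd1 KO (SD, n = 3 each), and rose by a log2 fold change of 4.69 (SE 0.777, limma adjusted p = 0.00494). Mcpt4 averaged 64.4 ± 50.7 in Samhd1 Sting dKO and 0.933 ± 0.104 in Samhd1 KO, a log2 fold change of 4.48 (SE 0.818, limma adjusted p = 0.00849). The log2 fold change was 3.90 for Tpsb2 (SE 0.899, limma adjusted p = 0.0274), 3.64 for Cpa3 (SE 0.939, limma adjusted p = 0.0435) and 1.96 for Il5ra (SE 0.481, limma adjusted p = 0.0355).

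In this comparison 5 of 7 genes were called higher, against 2.77% of all genes tested, with 2.89% lower. Kit stood at a log2 fold change of 2.74 (limma adjusted p = 0.0584) and Hdc at -0.04 (0.925). The median over the 7 was 3.64, against 0.00 over all genes tested. All 3 Samhd1 Sting dKO libraries lay above all 3 Samhd1 KO libraries for Cma1, Mcpt4, Tpsb2, Cpa3, Kit and Il5ra, 6 of the 8 in the table, against 11.9% of all genes tested. These counts are again a description, since the filter was passed through the groups where the genes were high. Without both Samhd1 Sting dKO replicates 1 and 2, 0 of the 7 were called, and the log2 fold change was 2.58 for Cma1 (limma adjusted p = 0.120), 2.28 for Mcpt4 (0.186), 1.33 for Tpsb2 (0.405) and 1.12 for Cpa3 (0.578). Leaving out 1 library at a time gave 2 to 6 calls: 2 without Samhd1 KO replicate 2 or 3 or without Samhd1 Sting dKO replicate 1 or 2, and 3 without Samhd1 KO replicate 1 or WT replicate 1.

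**Figure D2:**
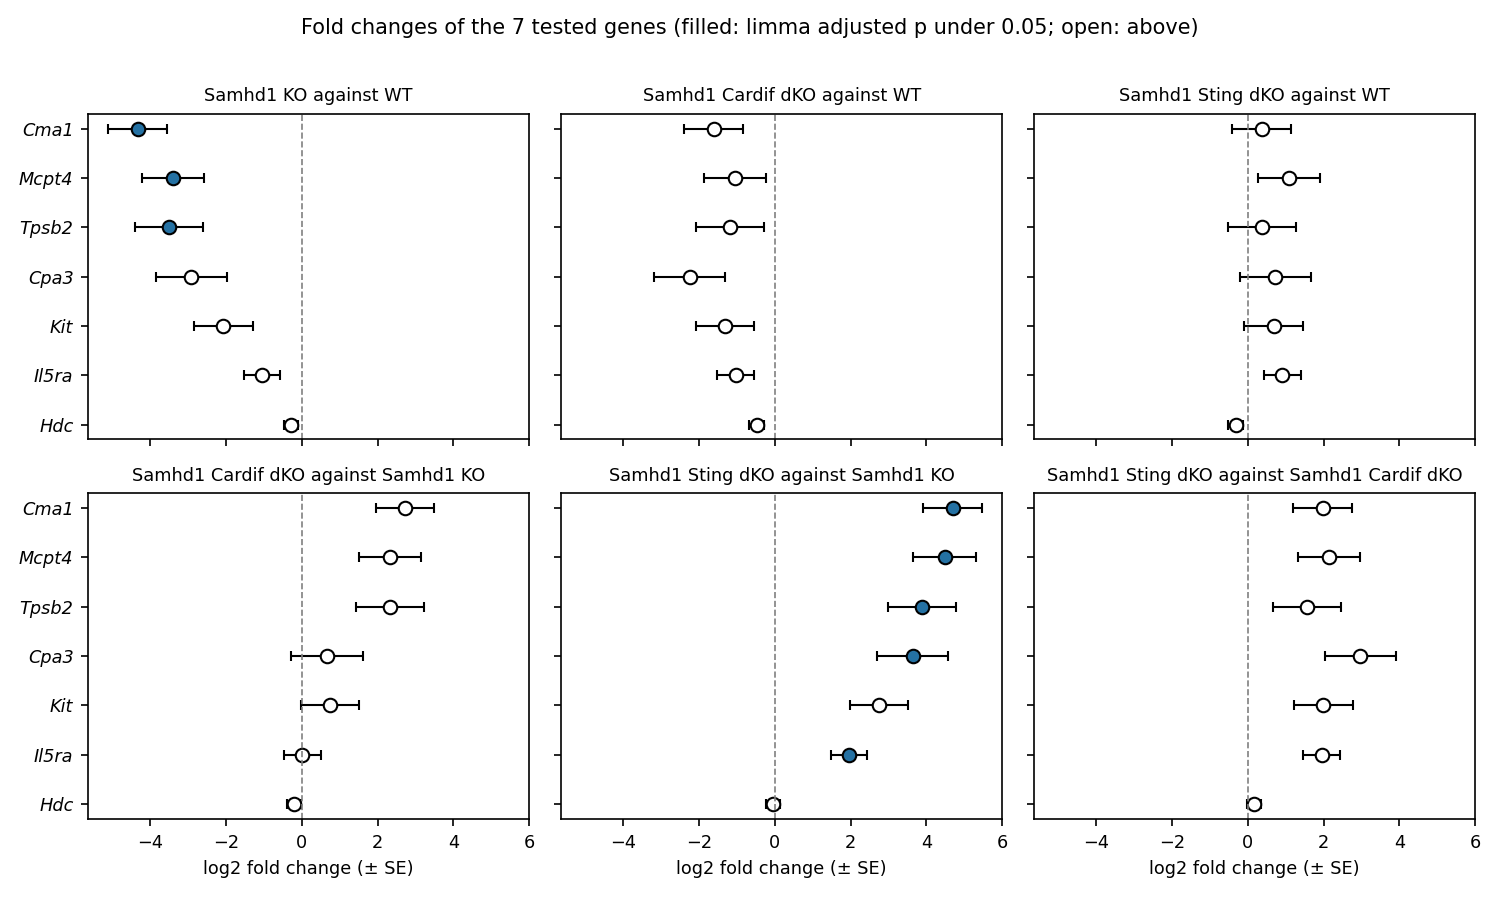
Log2 fold change on the log2(normalized reads + 1) scale (x axis, with SE) of the 7 tested genes (y axis) in the 6 pairwise comparisons, first group over second. Filled points have a limma adjusted p under 0.05. Filled points appear for Cma1, Mcpt4 and Tpsb2 in Samhd1 KO against WT and for 5 genes in Samhd1 Sting dKO against Samhd1 KO.

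By mean, Samhd1 Cardif dKO lay between Samhd1 KO and WT for the 4 protease genes and Kit, and was the lowest group for Hdc and Fcer1a. None of the 7 tested genes passed the test against Samhd1 KO or WT. Against Samhd1 KO the log2 fold change was 2.73 for Cma1 (limma adjusted p = 0.258), 2.34 for Mcpt4 (0.400), 2.34 for Tpsb2 (0.467), 0.67 for Cpa3, 0.75 for Kit, 0.01 for Il5ra and -0.20 for Hdc. By limma 0 of 7 were called, with 0% of all genes called higher and 0.144% called lower. At an unadjusted p under 0.05, a looser threshold, 3 of 7 passed. The share of all genes at the unadjusted threshold was not computed, here or below. Cma1, Mcpt4 and Tpsb2 had every Samhd1 Cardif dKO library above every Samhd1 KO library, 3 of 8 against 5.27% of all genes tested.

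Against WT the log2 fold change in Samhd1 Cardif dKO was -2.24 for Cpa3 (limma adjusted p = 0.300), -1.61 for Cma1 (0.370), -1.32 for Kit, -1.18 for Tpsb2, -1.05 for Mcpt4, -1.03 for Il5ra and -0.48 for Hdc (0.271). By limma 0 of 7 were called, while 0.710% of all genes were called lower. At an unadjusted p under 0.05, a looser threshold, 2 of 7 were lower. Cma1, Cpa3, Kit and Hdc did not overlap, 4 of 8 against 11.0% of all genes tested. The edgeR, limma-voom and DESeq2 tests also called 0 of the 7 in both comparisons of Samhd1 Cardif dKO.

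No gene of the set passed the test between Samhd1 Sting dKO and WT. The log2 fold change was 0.36 for Cma1 (SE 0.777), 0.38 for Tpsb2 (SE 0.899), 1.09 for Mcpt4 (SE 0.818), 0.73 for Cpa3 (SE 0.939), 0.68 for Kit (SE 0.767), 0.91 for Il5ra (SE 0.481) and -0.32 for Hdc (SE 0.190). By limma 0 of 7 were called, 0 passed at an unadjusted p under 0.05, and edgeR, limma-voom and DESeq2 also called 0, while 3.57% of all genes were called higher and 2.93% lower. Hdc alone did not overlap, at 1997, 2373 and 2043 normalized reads in Samhd1 Sting dKO and 2677, 2642 and 2682 in WT, 1 of 8 against 13.9% of all genes tested that were lower without overlap. Without Samhd1 Sting dKO replicates 1 and 2 the values of the 5 mast cell genes turned to -1.12 for Mcpt4, -1.17 for Kit, -1.75 for Cma1, -1.79 for Cpa3 and -2.19 for Tpsb2, and none passed.

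Between the double knockouts all 7 values were positive and none passed by limma. The log2 fold change of Samhd1 Sting dKO against Samhd1 Cardif dKO was 2.97 for Cpa3 (limma adjusted p = 0.169), 2.14 for Mcpt4 (0.238), 1.99 for Kit (0.241), 1.97 for Cma1 (0.250), 1.94 for Il5ra (0.114), 1.56 for Tpsb2 (0.439) and 0.16 for Hdc (0.742). Of all genes 0.189% were called higher by limma, and edgeR and limma-voom called 0 of the 7. At an unadjusted p under 0.05, a looser threshold, 5 of the 7 passed in limma. DESeq2 called 4 (Cma1, Cpa3, Il5ra and Mcpt4), all higher, and called 503 of all genes in either direction, against 37 by limma. Il5ra had every Samhd1 Sting dKO library above every Samhd1 Cardif dKO library, 1 of 8 against 9.16% of all genes tested. Without Samhd1 Sting dKO replicates 1 and 2 the value was -0.15 for Cma1, -0.07 for Mcpt4 and -1.01 for Tpsb2, and it stayed positive at 0.46 for Cpa3, 0.15 for Kit, 1.16 for Il5ra and 0.10 for Hdc. The authors' deposited table gives Il5ra a fold of 4.03 in the same direction (adjusted p = 0.0897), and in the authors' deposited table the fold was 12.9 for Cpa3 (adjusted p = 0.409), 6.86 for Mcpt4 (0.610) and 6.13 for Cma1 (0.507).

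The mean of the 3 Samhd1-deficient groups against WT had a negative log2 fold change for all 7 genes, largest for Cma1 at -1.86 (SE 0.635, limma adjusted p = 0.119), followed by Cpa3 at -1.48 and Tpsb2 at -1.44. By limma 0 of 7 were called, with 2.32% of all genes called lower. EdgeR and limma-voom called 0 of the 7 and DESeq2 called 1 (Cma1). At an unadjusted p under 0.05, a looser threshold, 2 of 7 were lower in limma. Without Samhd1 Sting dKO replicates 1 and 2, Cma1 (-2.57, limma adjusted p = 0.0164) and Tpsb2 (-2.29, limma adjusted p = 0.0287) were called. The comparisons above share libraries with each other and are not independent.

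Il5ra did not move with the mast cell genes in every library. Il5ra (ENSMUSG00000005364) had 50.6, 43.9 and 20.3 normalized reads in Samhd1 Sting dKO, 5.12, 16.1 and 7.27 in Samhd1 Cardif dKO libraries and 14.8, 8.26 and 4.71 in Samhd1 KO libraries, against 19.9, 15.3 and 20.8 in WT. Samhd1 Sting dKO lay above both other knockout groups without overlap, and its replicate 1 was 2.49 times replicate 3. The order of the means was Samhd1 Sting dKO, WT, Samhd1 Cardif dKO and Samhd1 KO, and the last pair, at 9.48 ± 5.79 and 9.27 ± 5.14, did not differ beyond its spread.

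B cell genes followed the same libraries as Il5ra. The summed level of the B cell genes Cd79a, Ms4a1 and Pax5 was 1265, 917 and 575 normalized reads in Samhd1 Sting dKO, 145, 358 and 236 in Samhd1 Cardif dKO libraries and 233, 151 and 96.2 in Samhd1 KO libraries, against 414, 239 and 296 in WT. For every 100 normalized reads of these 3 genes Il5ra had 3.53 to 4.79 in Samhd1 Sting dKO and 3.08 to 4.48 in Samhd1 Cardif dKO. The ratio was 4.90 to 6.36 in Samhd1 KO and 4.81 to 7.0 in WT. Both dKO groups thus lay below Samhd1 KO and WT without overlap, by a small margin and on few reads of Il5ra. Across the 12 libraries, which share their size factors with both genes of a pair, the Pearson r of Il5ra was 0.957 with Cd79a, 0.914 with Ms4a1 and 0.876 with Pax5, against 0.606 to 0.811 with Cma1, Tpsb2, Mcpt4, Cpa3 and Kit.

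In Samhd1 Sting dKO against Samhd1 KO, 9 of 10 B cell markers were called higher, among them Cd79a by a log2 fold change of 2.59 (limma adjusted p = 0.00367) and Ms4a1 by 2.46 (limma adjusted p = 0.00434). The 10 markers summed to 1222 to 2956 normalized reads in Samhd1 Sting dKO and 240 to 495 in Samhd1 KO. With their level as a covariate the log2 fold change of Il5ra in this comparison turned to -0.90 (limma adjusted p = 0.906). That of Cma1 was 2.69 (0.874), and 26 genes of all were called in place of 749. The covariate, a mean log2 level, was 6.22 to 7.49 in Samhd1 Sting dKO and 3.87 to 4.86 in Samhd1 KO. These ranges do not overlap, so the fit cannot cleanly separate B cell level from genotype. T and NK cell markers, 8 in the table with Cd3e and Cd3d among them, summed to 37.0 to 54.0 in Samhd1 Sting dKO and 3.77 to 16.5 in Samhd1 KO. Cell cycle genes summed to 820 to 1994 in Samhd1 Sting dKO and 2637 to 10973 in Samhd1 KO. The 3 neutrophil markers summed to 3084 to 4190 in Samhd1 Sting dKO and 5386 to 6968 in Samhd1 KO, with Prtn3 called lower (log2 fold change -0.83, limma adjusted p = 0.0200). Of these 3 markers 2 were lower and 1, S100a8, was higher, averaging 44.1 ± 5.88 in Samhd1 Sting dKO and 30.5 ± 9.50 in Samhd1 KO. The part of these last lists in the result was not tested.

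**Figure D3:**
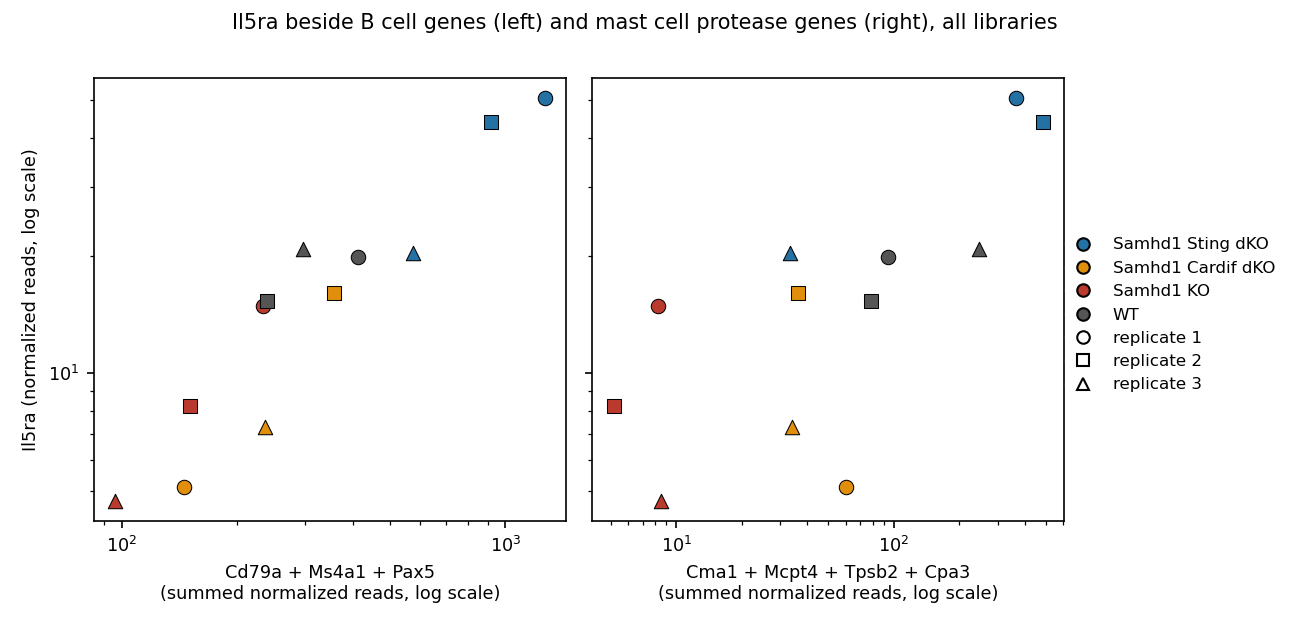
Il5ra (y axis, normalized reads, log scale) against the summed B cell genes Cd79a, Ms4a1 and Pax5 (left) and the 4 mast cell protease genes (right), both in summed normalized reads on log axes, for the 12 libraries. Colour gives the genotype group and shape the replicate. On the left the libraries have 3.08 to 7.0 normalized reads of Il5ra per 100 of the B cell genes. By this ratio both dKO groups lie below Samhd1 KO and WT. On the right Samhd1 Cardif dKO replicate 1 has 5.12 normalized reads of Il5ra at a protease sum of 60.4.

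Other eosinophil genes differed among themselves in how they ran across the groups. Of the 7 eosinophil markers, the defining genes Prg2 and Epx, which encode granule proteins, are not analysed here. Ccr3, the eotaxin receptor, was at 28.6, 18.0 and 20.3 normalized reads in Samhd1 Sting dKO, 37.9, 16.1 and 37.6 in Samhd1 Cardif dKO libraries and 29.7, 21.7 and 38.7 in Samhd1 KO libraries, against 32.2, 33.4 and 26.7 in WT, with all groups overlapping. Siglec5, the table's name for Siglecf, was at 5.5 to 9.0 in Samhd1 Sting dKO, 12.04 to 27.7 in Samhd1 Cardif dKO and 7.42 to 19.6 in Samhd1 KO, against 10.5 to 18.9 in WT. Ear2, a gene of the eosinophil-associated ribonuclease family, was at 13.2, 9.0 and 10.7 in Samhd1 Sting dKO, 1.02, 10.03 and 4.85 in Samhd1 Cardif dKO libraries and 4.12, 6.19 and 4.71 in Samhd1 KO libraries, against 3.79, 1.91 and 2.96 in WT. Its Samhd1 Sting dKO libraries lay above those of Samhd1 KO and WT without overlap, at a log2 fold change of 0.99 against Samhd1 KO (limma adjusted p = 0.313) and 1.64 against WT (0.0971). Alox15, a lipoxygenase gene that peritoneal macrophages also express, was at 211376 to 257935 in all 12 libraries. Of 7 tested eosinophil genes outside the set, 0 were called in Samhd1 KO against WT by limma, with 1 higher at an unadjusted p under 0.05, and 1 was called lower in Samhd1 Sting dKO against Samhd1 KO. That gene was Csf2rb, the chain that the receptors of interleukin-3, interleukin-5 and GM-CSF share, at a log2 fold change of -0.45 (limma adjusted p = 0.0101).

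Hdc stood apart from the rest of the set. Hdc (ENSMUSG00000027360), the enzyme that makes histamine, had 1997, 2373 and 2043 normalized reads in Samhd1 Sting dKO, 2438, 1608 and 1773 in Samhd1 Cardif dKO libraries and 1673, 2092 and 3024 in Samhd1 KO libraries, against 2677, 2642 and 2682 in WT. The means ran from WT through Samhd1 KO and Samhd1 Sting dKO to Samhd1 Cardif dKO, and each group overlapped its neighbours in that order, with the 3 WT libraries inside the range of Samhd1 KO. Per kilobase it averaged 335 ± 32.1 in Samhd1 Sting dKO, 304 ± 68.7 in Samhd1 Cardif dKO libraries and 354 ± 108 in Samhd1 KO libraries, against 417 ± 3.45 in WT (SD, n = 3 each), while Cma1 averaged 76.7 per kilobase in Samhd1 Sting dKO, 12.5 in Samhd1 Cardif dKO, 1.39 in Samhd1 KO, and 43.5 in WT. Its Pearson r over the 12 libraries was 0.161 to 0.325 with Cma1, Tpsb2, Mcpt4, Cpa3 and Kit, whose 10 pairs among themselves had r of 0.841 to 0.956.

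Most other mast cell genes were not called. Of 35 further mast cell genes, 24 were in the table and 16 were tested. Several of the 16 were read far above the proteases, such as Srgn and Alox5ap, at WT means of 16234 and 18731, against 46.7 for Cma1. Others, such as Il9r at 19.1, were not. How much of these reads came from macrophages was not tested, so the values below cannot be read as those of mast cells. In Samhd1 KO against WT 1 was called, and of the 16 values 6 were positive and 10 negative, with a median log2 fold change of -0.12. The gene called was Cd63, a membrane protein of granules and lysosomes, which averaged 685 ± 87.2 normalized reads in Samhd1 KO and 1357 ± 171 in WT, a log2 fold change of -0.99 (SE 0.151, limma adjusted p = 0.00643). In Samhd1 Sting dKO against Samhd1 KO, Cd63 averaged 1400 ± 244 in Samhd1 Sting dKO and 685 ± 87.2 in Samhd1 KO, a log2 fold change of 1.02 (limma adjusted p = 0.00269). Il9r, the interleukin-9 receptor gene, averaged 41.9 ± 14.6 in Samhd1 Sting dKO and 10.3 ± 3.66 in Samhd1 KO and was called higher by 1.93 (limma adjusted p = 0.00874), which with Cd63 makes 2 of 16 higher and 1, Csf2rb, lower. Ndst2, an enzyme of heparin synthesis, ran another way, at 2930 ± 194 in Samhd1 Sting dKO, 2651 ± 115 in Samhd1 Cardif dKO libraries and 2804 ± 198 in Samhd1 KO libraries, against 2247 ± 204 in WT (SD, n = 3 each). It was called higher in Samhd1 Sting dKO than in WT by 0.38 (limma adjusted p = 0.0204), and its value in Samhd1 KO against WT was 0.32 (limma adjusted p = 0.0517).

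Of the 8 listed mast cell genes with too few reads to be tested, 6 had Samhd1 Sting dKO replicates 1 and 2 above every library of the other groups, and Ctsg and Hpgds did not. The choice of these replicates followed the levels of the proteases. The same count over all genes with few reads was not made, so this count is a description only. Mrgprb1, a receptor gene of the Mrgpr family, had 9.90, 13.5 and 3.58 normalized reads in Samhd1 Sting dKO, 1.02, 0 and 1.21 in Samhd1 Cardif dKO libraries and 0, 0 and 0.943 in Samhd1 KO libraries, against 2.84, 2.86 and 4.45 in WT. Gata2, a transcription factor of mast cells and their precursors, had 5.5, 15.7 and 0 in Samhd1 Sting dKO, 1.02, 0 and 0 in Samhd1 Cardif dKO and 0 in each Samhd1 KO library, against 0.947, 0 and 2.22 in WT. Slc18a2, which loads amines into granules, had 4.40, 15.7 and 0 in Samhd1 Sting dKO, 0 in each Samhd1 Cardif dKO library and 0, 0 and 0.943 in Samhd1 KO, against 2.84, 1.91 and 1.48 in WT. The others of the 6 were Tph1, Slc45a3 and Cyp11a1. Ctsg, which encodes the protease cathepsin G, had 3.30, 6.75 and 4.77 in Samhd1 Sting dKO and was highest in Samhd1 KO replicate 3 at 12.3. Hpgds, a prostaglandin synthase gene, had 8.80, 2.25 and 9.54 in Samhd1 Sting dKO, and every group overlapped every other. The genes in this paragraph were named after their values were seen. Among the tested genes of the list, Kcne3 and Cd200r3 also had their lowest Samhd1 Sting dKO value, 6.75 and 4.50, in replicate 2. So did Mitf, Il1rl1, Ndst2, Maob, Kitl, Csf2rb and Csf2rb2. The lowest value was in replicate 3 for Srgn, Ltc4s, Alox5, Alox5ap, Cd63 and Il9r, and in replicate 1 for Tal1.

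**Figure D4:**
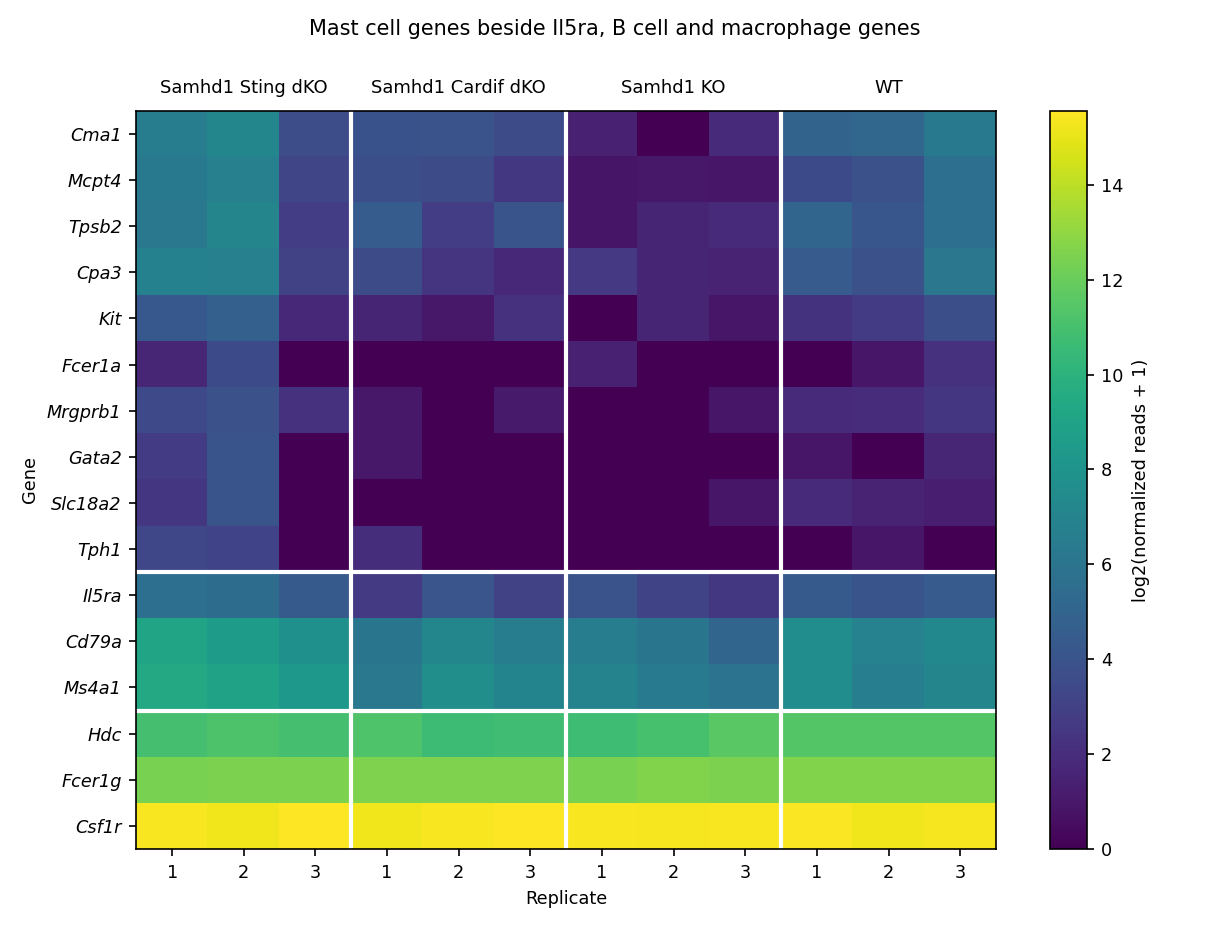
Log2(normalized reads + 1) (colour) of mast cell genes (top block), Il5ra with the B cell genes Cd79a and Ms4a1 (middle block) and Hdc, Fcer1g and the macrophage gene Csf1r (bottom block) in the 12 libraries by group and replicate (x axis). The top block is dark in Samhd1 KO and brighter in Samhd1 Sting dKO replicates 1 and 2, where Cma1 had 96.8 and 138 normalized reads. Its genes are a selection. Listed mast cell genes without this pattern, such as Ctsg and Hpgds, are left out, and the mast cell marker Hdc stands in the bottom block. The same colour scale runs up to the level of Csf1r, which is even across the libraries.

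The IgE receptor pathway beyond Fcer1a was read at very different levels, and all 16 listed genes were tested. Fcer1g, the signalling chain that macrophage Fc receptors also use, averaged 5726 ± 108 normalized reads in Samhd1 Sting dKO, 5957 ± 110 in Samhd1 Cardif dKO libraries and 5876 ± 470 in Samhd1 KO libraries, against 6181 ± 35.9 in WT (SD, n = 3 each). In Samhd1 KO against WT 2 of 16 were called higher and 0 lower: Orai1, a calcium channel, by 0.71 (limma adjusted p = 0.0138), and Vav1, an exchange factor, by 0.31 (limma adjusted p = 0.0477). In Samhd1 Sting dKO against Samhd1 KO the kinase gene Fyn was called higher by 0.54 (limma adjusted p = 0.0421), and the adaptor genes Gab2 by -0.42 (limma adjusted p = 0.0399) and Lcp2 by -0.38 (limma adjusted p = 0.0158) lower. Orai1 was also higher in Samhd1 Sting dKO than in WT, by 0.70 (limma adjusted p = 0.0121). Grap2, an adaptor gene with few reads, had 46.2, 47.2 and 19.1 normalized reads in Samhd1 Sting dKO, 5.12, 11.04 and 0 in Samhd1 Cardif dKO libraries and 4.95, 7.23 and 4.71 in Samhd1 KO libraries, against 13.3, 5.73 and 14.1 in WT. All its Samhd1 Sting dKO libraries lay above all others, at a log2 fold change of 2.45 against Samhd1 KO (limma adjusted p = 0.0798). Lat, another adaptor gene, was at 2.83 to 13.5 in all libraries. Both were named after their values were seen.

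Basophils share Cpa3 and Fcer1a with mast cells. Their defining genes Mcpt8 and Prss34 are not analysed here. Of 5 tested basophil genes outside the set, 0 were called by limma in Samhd1 KO against WT and 0 in Samhd1 Sting dKO against Samhd1 KO, with 0 and 1 at an unadjusted p under 0.05. Cd200r3, a receptor gene of basophils and mast cells, was highest in Samhd1 KO replicate 3 at 66.0 normalized reads, a library where Cpa3 was at 1.89.

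The rank of Kit among the genes most like the proteases across libraries depended on the measure of likeness. Likeness was the Pearson r, over the 12 libraries, with the mean log2 level of Cma1, Tpsb2, Mcpt4 and Cpa3, among 11039 named genes outside the set. Kit had r = 0.908, and 2 genes outside the set exceeded it, while 27 exceeded its Spearman rho of 0.853. Of the 10 genes most alike by Pearson r, 9 also exceeded Kit by Spearman rho. The 2 above Kit by Pearson r were Sox5, a transcription factor gene, with r = 0.953, and Irak1, a kinase gene of Toll-like receptor signalling, with r = 0.916. Sox5 had 28.6, 25.9 and 5.96 normalized reads in Samhd1 Sting dKO, 8.19, 6.02 and 6.06 in Samhd1 Cardif dKO libraries and 4.12, 2.06 and 4.71 in Samhd1 KO libraries, against 11.4, 6.68 and 12.6 in WT, so its replicate 3 of Samhd1 Sting dKO was low as well. The other 8 of the 10 most alike, Mri1, Rpl8, Mfsd3, Trappc4, Spag7, Cd37, Ccdc109a and Ipo4, had r of 0.872 to 0.907, and Rpl8 averaged between 17450 and 19103 in the 4 groups, a much narrower span than Cma1. Il5ra had r = 0.745, exceeded by 195 genes, and Hdc r = 0.257, exceeded by 3117. These values describe 12 libraries that share group, depth and cell content.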

How the data were processed

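Messenger RNA of 12 libraries was measured, 3 in each of 4 genotype groups taken from the labels. Per the file headers, genes and transcripts came from Ensembl 61 on mm9. DESeq 1.6.1 and bedtools 2.16.2 are named in the submitters' processing notes, while the read aligner was not given in the sources used here. Each deposited signal value is a gene's reads over 1 size factor of its library, as the authors scaled them. In every library all values divided by that of 1 read gave whole numbers at a tolerance of 1e-04, so reads were recovered by division (100% whole); in Samhd1 Cardif dKO replicate 2 that value is 1.003, too near 1 to exclude rounding. Depth was 18884021 to 32204657 reads. Every gene listed has a read in at least 1 of the 6 dKO libraries, so a gene absent from all of these is not analysed here. The deposited fold, log2 fold and p-value columns are the authors' own comparison of the dKO groups; the fold is a ratio of group means.

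The 13231 genes that reached 10 normalized reads in 3 or more libraries were fitted with limma 3.58.1 under R 4.3.3 on log2(normalized reads + 1), with a trended prior, 1 mean per group and 8 residual degrees of freedom; 7 contrasts were adjusted over all genes at a threshold of 0.05. The members and the lists were chosen with earlier results of these data known, so counts over them are descriptions. A listed B cell marker is not reported here and was left out of the B cell list and its covariate. All members are named, with list genes that were called, the 10 genes most alike to the protease mean, and a few low genes named after their values were seen. Alternatives were edgeR 4.0.16, DESeq2 1.42.0 and limma-voom on recovered reads, other scaling, filters and pseudocounts (0.5 and 5), only the groups of a contrast, labelled age or replicate number in the fit, and leaving out each library; leaving out Samhd1 Sting dKO replicates 1 and 2 together and a B cell covariate were added after seeing the data. Leaving out libraries that leaves a group with 1 sample assumes that it varies like the other groups. The scripts were tested on simulated data.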

Additional observations from a re-analysis of the deposited data

How the results depend on the processing

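Under 26 alternatives, the number of members called stayed at 0 in Samhd1 Cardif dKO against Samhd1 KO, in Samhd1 Cardif dKO against WT and in Samhd1 Sting dKO against WT. In Samhd1 KO against WT 3 were called, and 4 with DESeq2, with only the groups of the contrast and without Samhd1 Sting dKO replicates 1 and 2, 1 (Cma1) with a pseudocount of 5, with edgeR under either scaling and with labelled age as a covariate, 0 with limma-voom, 0 with the B cell covariate, and 0 to 4 when 1 library was left out. In Samhd1 Sting dKO against Samhd1 KO 5 were called, and 6 with DESeq2 and with edgeR under either scaling, 4 with a pseudocount of 5 or the higher filter, 1 with limma-voom, 2 with only the groups of the contrast or with labelled age, 0 without Samhd1 Sting dKO replicates 1 and 2, 0 with the B cell covariate and 2 to 6 when 1 library was left out. DESeq2 called 4 in Samhd1 Sting dKO against Samhd1 Cardif dKO and 1 in the mean of the Samhd1-deficient groups against WT, where leaving out Samhd1 Sting dKO replicates 1 and 2 gave 2. The B cell covariate turned Il5ra in Samhd1 Sting dKO against Samhd1 KO to -0.90, and its level did not overlap between those groups. The cause of each of these shifts was not tested. Of 207 fold changes of called members under the alternatives, 132 stayed past the threshold, 74 kept their sign and missed it and 1 turned. Kit and Il5ra were not tested at the filter of 23.2 normalized reads.

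The labels do not say whether the replicate numbers pair the samples, and the main fit did not pair them. The 18 correlations of deviations between same-numbered libraries ran from -0.427 to 0.369, and 7 were over 0.1. Libraries with different numbers were not compared, so this check cannot decide the question. With the replicate number as a block, 1 member was called in Samhd1 KO against WT and 4 in Samhd1 Sting dKO against Samhd1 KO. Levels of a few reads, as in Samhd1 KO, carry counting error of their own size.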
